A study of Mus musculus with 16 samples.

Results

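Mitochondrial ribosomal protein genes were described here across the left ventricles of mice with and without the nuclear receptor PPARalpha, after a sham operation or under pressure load. The members are the 76 genes whose array annotation symbol starts with Mrpl or Mrps followed by a digit, each read from its brightest single-gene probe set, out of 18193 genes with such a probe set. By symbol, 47 belong to the large and 29 to the small subunit of the mitochondrial ribosome. Mrpl30 and Mrpl53 lie only on probe sets shared with another gene and are not analysed here. All 76 passed the filter that left out the dimmest 40% of genes and kept 10916 genes for testing. The rule used no measured difference between groups.

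Mitochondria carry their own ribosome, which translates the few proteins encoded in mitochondrial DNA, all of them subunits of the respiratory chain and ATP synthase. Its RNAs are made inside the organelle, but each of its proteins is encoded in the nucleus, made in the cytosol and imported. Some of these proteins have bacterial counterparts and keep the bacterial number, while others with higher numbers were added in the mitochondrial lineage. The heart is rich in mitochondria, and PPARalpha is known there as an activator of genes for fatty acid uptake and oxidation. The Mrp genes were taken by their symbols as ribosome proteins and not as fuel enzymes. Their transcripts thus give a view of the organelle's protein-making machinery, largely apart from its fuel pathways.

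The 4 groups were wild-type mice after a sham operation (WT sham), wild-type mice after transverse aortic constriction (WT TAC), PPARalpha-/- mice after a sham operation (KO sham) and PPARalpha-/- mice after constriction (KO TAC), all at 28 days. Transverse aortic constriction narrows the aorta so that the left ventricle pumps against a higher pressure. Each group held 4 Affymetrix arrays of total left ventricular RNA, while the sources used here do not give strain, age, sex or pooling. The labels do not say that arrays of a group come from separate animals, so p-values rest on the spread among these samples only, part of which could be technical. PPARalpha-/- denotes a deletion carried in all cells, so a difference between genotypes need not arise in heart muscle cells.

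Median signals of the 16 arrays lay between 108.3 and 163, and the mean correlation of an array with others of its group lay between 0.94 and 0.969. WT TAC 3 had the lowest of these correlations, and it had the highest mean spike-in signal (log2 13.36) while KO TAC 3 and KO TAC 2 had the lowest (12.28 and 12.42). Ppara itself gave -1.70 ± 0.17 in KO sham and by -1.92 ± 0.17 in KO TAC against the WT group under the same operation. All 10 heart muscle markers examined were above the signal floor on every array. Unless stated otherwise, a difference is in log2 of the deposited signal with its standard error from limma, adjusted p-values are two-sided and corrected by Benjamini-Hochberg for the 10916 genes tested, and a gene is called at an adjusted p under 0.05. The number of arrays limits the precision: the 95% interval of a member's pairwise difference reached 0.24 to either side at the median.

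As a group the Mrp genes differed little between the 4 conditions. When each gene was set against its WT sham mean and the median over the 76 genes was taken on each array, WT sham gave 0.05, 0.04, -0.01 and -0.08. WT TAC gave -0.03, 0.07, -0.08 and 0.01. KO sham gave -0.02, 0.15, -0.03 and -0.05, and KO TAC gave 0.00, 0.05, -0.13 and -0.11. The 4 groups overlapped, with means of 0.00 ± 0.06 (SD, n = 4), -0.01 ± 0.07, 0.01 ± 0.09 and -0.05 ± 0.08 in that order. KO sham 2 stood highest and KO TAC 3 lowest of the 16. In each of the 5 comparisons 0 of 76 members differed by more than 1.5-fold, whereas between 515 and 1316 of the 10916 tested genes did so. Of 76 nuclear respiratory chain genes, 0 did so in the pairwise comparisons and 3 in the interaction.

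**Figure D1:**
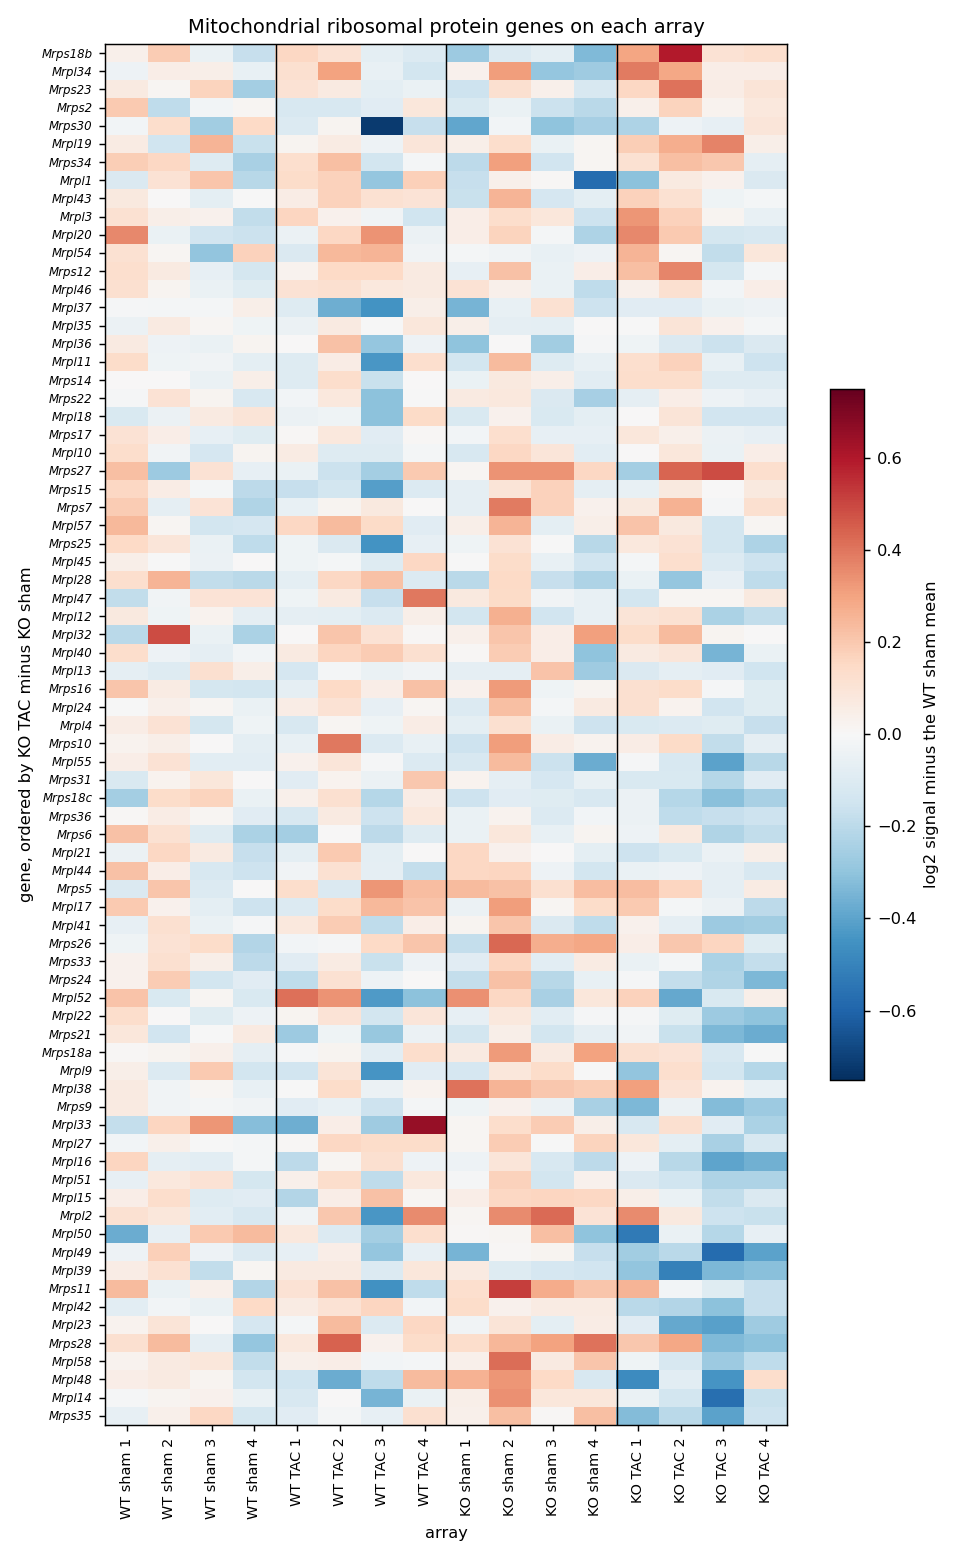
Log2 signal of each of the 76 Mrp genes (rows, ordered by the KO TAC minus KO sham difference) on each of the 16 arrays (columns), as the difference from that gene's WT sham mean (colour scale, log2). Most cells are pale, and WT TAC 3 holds several dark cells, including that of Mrps30. The 4 KO TAC columns are mostly red in the top rows and mostly blue in the bottom rows, which follows in part from the order of rows.

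The intervals show how closely the members were held. In WT TAC against WT sham, the 95% interval of 76 of 76 members lay within a 1.5-fold change in either direction, against 58.1% of all tested genes. In KO sham against WT sham, 74 of 76 did so, against 57.1%. In KO TAC against WT TAC the number was 74 of 76 against 51.8%, and in KO TAC against KO sham it was 69 of 76 against 52.2%. The members also varied less within groups, with a median SD of 0.14 against 0.25 for all tested genes. This was not particular to them, since the SD was 0.13 for nuclear respiratory chain genes and 0.14 for citric acid cycle genes. It was 0.12 for fatty acid oxidation genes and 0.13 for cytosolic ribosomal proteins. Intervals within 1.5-fold made up 98.7% of respiratory chain and 100% of citric acid cycle genes in KO sham against WT sham. In KO TAC against WT TAC they made up 77.6% and 88.2%. Members were brighter than most tested genes, and whether brightness accounts for the narrower spread was not tested.

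**Figure D2:**
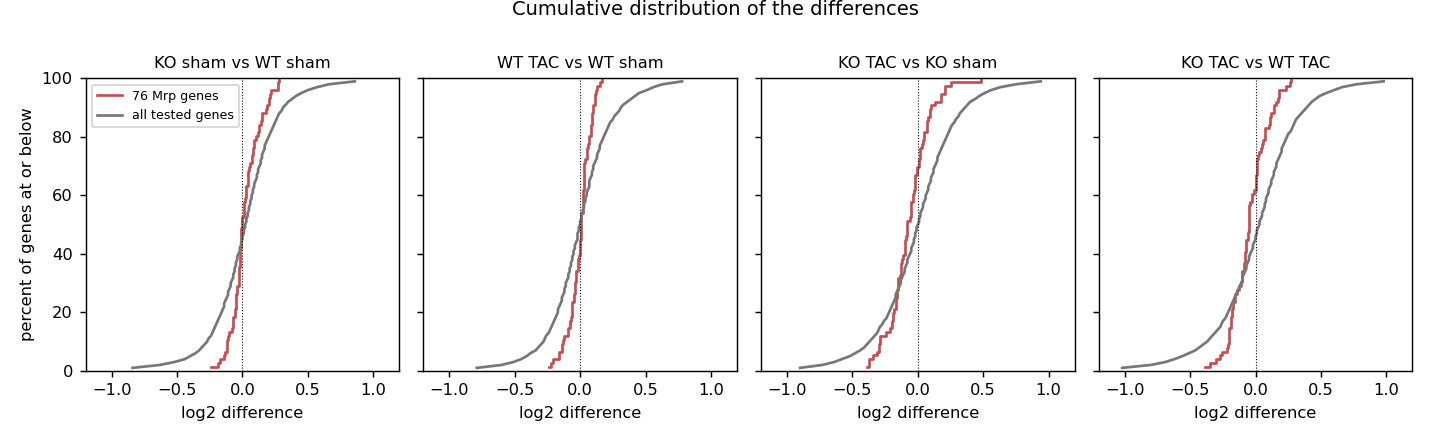
Cumulative percent of genes (vertical axis) at or below each log2 difference (horizontal axis) for the 76 Mrp genes (red) and all 10916 tested genes (grey), in 4 comparisons. The red curves are steeper, with an SD over genes of 0.11 against 0.29 for KO sham versus WT sham and 0.16 against 0.33 for KO TAC versus KO sham.

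The first comparison asks what the missing receptor does to these genes at baseline. In KO sham against WT sham, 0 of 76 members were called, against 0.742% of all tested genes, and 1 had an unadjusted p under 0.05, against 8.52%. The median of the members was 0.00, beside 0.02 for all tested genes, with 37 of 76 positive and a range from -0.24 to 0.28. Arrays of the pair of groups did not overlap for 3 members, all higher in KO sham (Mrpl14, Mrpl38 and Mrps18a), against 5.91% of all genes in either direction.

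Mrpl38, a protein added to the large subunit in mitochondria, had the smallest p of the baseline comparison. Its signal was 1854, 1747, 1791 and 1709 in WT sham and 2356, 2122, 2053 and 2020 in KO sham. Each KO sham array was above each WT sham array, and the difference was 0.27 ± 0.09 (adjusted p = 0.347), which did not pass. Under load the genotypes overlapped, with a Mrpl38 signal of 1768, 1945, 1719 and 1811 in WT TAC and 2199, 1911, 1812 and 1711 in KO TAC. Mrps11, which has a bacterial counterpart in the small subunit, gave the highest baseline value of a member at 0.28 ± 0.15 (adjusted p = 0.684). Mrps30 gave the lowest at -0.24 ± 0.15 (adjusted p = 0.74).

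The second comparison asks how the wild-type ventricle responds to load. In WT TAC against WT sham, 0 of 76 members were called, as were 0% of all tested genes, so that the count says little about the members by itself. No member (0 of 76) reached an unadjusted p under 0.05, against 7.62% of all genes, and 0 were free of overlap between groups, against 4.28%. The median was 0.01, beside 0.00 for all genes, and the members ranged from -0.24 (Mrps30) to 0.17 (Mrps28). The 5 members with the smallest p all had values below 0. They were Mrps15 (-0.21 ± 0.10), Mrpl37 (-0.22 ± 0.12), Mrps30 (-0.24 ± 0.15), Mrps21 (-0.16 ± 0.10) and Mrps25 (-0.16 ± 0.12), with adjusted p between 0.667 and 0.789. The mean of the Mrps25 probe sets gave 0.27 instead. For Mrps30, WT TAC 3 alone was far down, with a signal of 957.6 where the other WT TAC arrays had 1471, 1599 and 1398.

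The third comparison asks how the ventricle without the receptor responds to load. In KO TAC against KO sham, 1 of 76 members was called lower (Mrps35) and 0 higher, against 2.57% of all tested genes. Of the members, 9 had an unadjusted p under 0.05, against 16% of all genes, and 9 had no overlap between groups, against 10.8%. The median of the members was -0.08, beside 0.00 for all genes, and 53 of 76 lay below the all-gene median. Of the 9 without overlap, Mrps18b and Mrps2 were higher in KO TAC, and Mrpl14, Mrpl15, Mrpl23, Mrpl39, Mrpl42, Mrpl58 and Mrps35 were lower. Each of these shares is near or below its background.

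Mrps35, a protein of the small subunit added in mitochondria, was the called gene. Its signal was 4808, 5470, 4703 and 5463 in KO sham and 3736, 4056, 3551 and 4201 in KO TAC. It was 4473, 4818, 5238 and 4266 in WT sham and 4410, 4654, 4484 and 5061 in WT TAC. All 4 KO TAC arrays lay below the other 12 arrays. Mrps35 fell by 0.39 ± 0.10 with load in the knockout, a 1.31-fold change with a 95% interval from -0.60 to -0.19 (limma, adjusted p = 0.046). With load in wild type it gave -0.01 ± 0.10, and between genotypes under load -0.26 ± 0.10 (adjusted p = 0.198). The call was lost when any single array other than WT sham 3 or WT TAC 3 was left out (adjusted p from 0.0507 to 0.135), and when arrays were centred on their medians (-0.27, adjusted p = 0.428).

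Mrps18b stood at the other end. It is 1 of 3 mouse genes related to a single bacterial small-subunit protein, beside Mrps18a and Mrps18c. Its signal was 1563, 1757, 1791 and 1502 in KO sham and 2313, 2866, 2029 and 2058 in KO TAC. Each KO TAC array was above each KO sham array, but not above each WT array, which ran from 1670 to 2146 in WT sham and from 1759 to 2111 in WT TAC. The difference with load in the knockout was 0.48 ± 0.12 (1.39-fold, adjusted p = 0.0589), just short of passing. Mrps18a gave -0.16 ± 0.09 and Mrps18c -0.09 ± 0.11 in the same comparison. The difference between these relatives was not tested.

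The members next in order by p were all lower in KO TAC. Mrpl42 gave -0.30 ± 0.08 (adjusted p = 0.0738), Mrpl58 -0.34 ± 0.10 (adjusted p = 0.104) and Mrpl14 -0.37 ± 0.12 (adjusted p = 0.137). Mrpl58 carries a peptidyl-tRNA hydrolase that frees stalled mitochondrial ribosomes, and Mrpl14 has a bacterial counterpart at the face where the subunits meet. The Mrpl58 signal was 5226, 6777, 5325 and 5874 in KO sham and 4977, 4669, 4202 and 4449 in KO TAC. The gap between these groups rests partly on the KO sham side, since WT sham (4476 to 5397) overlapped KO TAC.

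The fourth comparison sets the genotypes side by side under load, and shares the KO TAC arrays with the third. In KO TAC against WT TAC, 1 of 76 members was called lower (Mrpl39) and 0 higher, against 2.46% of all tested genes. Of the members, 7 had an unadjusted p under 0.05, against 16.4%, and 6 had no overlap between groups, against 9.55%. The median was -0.05, beside 0.03 for all genes, and 56 of 76 members lay below the all-gene median. Mrps15 was the member higher without overlap, and Mrpl39, Mrpl42, Mrpl58, Mrps31 and Mrps35 were lower.

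Mrpl39 is a protein of the large subunit, added in mitochondria, and was 1 of the 3 brightest members. Its signal was 14996, 14942, 13272 and 15213 in WT TAC and 11661, 10085, 11358 and 11543 in KO TAC. WT sham gave 14886, 15468, 12615 and 14424, and KO sham gave 14986, 13402, 13084 and 12933. Again all 4 KO TAC arrays lay below the other 12. Mrpl39 gave -0.39 ± 0.09 in KO TAC than in WT TAC, a 1.31-fold difference with a 95% interval from -0.59 to -0.19 (limma, adjusted p = 0.0438). Its other probe set gave -0.27 in the same comparison and -0.27 with load in the knockout, beside -0.29 ± 0.09 (adjusted p = 0.138) for the brighter one. The call was kept without WT sham 3, WT TAC 3 or KO sham 1 and lost without any other single array (adjusted p from 0.0526 to 0.149), and centring arrays on their medians gave -0.20 (adjusted p = 0.389).

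Mrpl42, the brightest member, had the same order of arrays without passing the test. Its signal was 33731, 34970, 35998 and 31858 in WT TAC, 35719, 32949, 33646 and 33626 in KO sham and 28159, 27652, 26112 and 28743 in KO TAC. WT sham gave 30635, 31916, 31209 and 35836, so the KO TAC arrays were once more the lowest of the 16. The difference was -0.30 ± 0.08 against WT TAC (adjusted p = 0.0711). Averaging it with its dim second probe set turned its value with load in the knockout to 0.41. Mrpl51, the second brightest, gave -0.19 ± 0.10 in both KO TAC comparisons (adjusted p = 0.35 against WT TAC), and its KO TAC arrays (15363 to 16770) overlapped those of WT TAC (15814 to 19765). Genes whose 4 KO TAC arrays lay below the other 12 arrays numbered 3 of 76 members (Mrpl39, Mrpl42 and Mrps35), against 0.971% of all tested genes, and those above numbered 0 of 76, against 1.53%. This count was made after the values were seen.

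Mrpl23, which has a bacterial counterpart near the exit of the peptide tunnel, gave -0.35 ± 0.10 against WT TAC (adjusted p = 0.0984). Its signal was 7752, 9232, 7281 and 8690 in WT TAC and 7376, 6016, 5906 and 6538 in KO TAC, where KO TAC 1 overlapped WT TAC 3. Mrps15, with a bacterial counterpart in the small subunit, gave 0.23 ± 0.10 (adjusted p = 0.269). The signal of Mrps15 was 2120, 2174, 1792 and 2226 in WT TAC and 2310, 2518, 2395 and 2527 in KO TAC. The 2310 to 2527 of KO TAC lay inside the WT sham range of 2089 to 2657, so the WT TAC arrays were the low ones. Its other bright probe set gave -0.01 in this comparison.

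**Figure D3:**
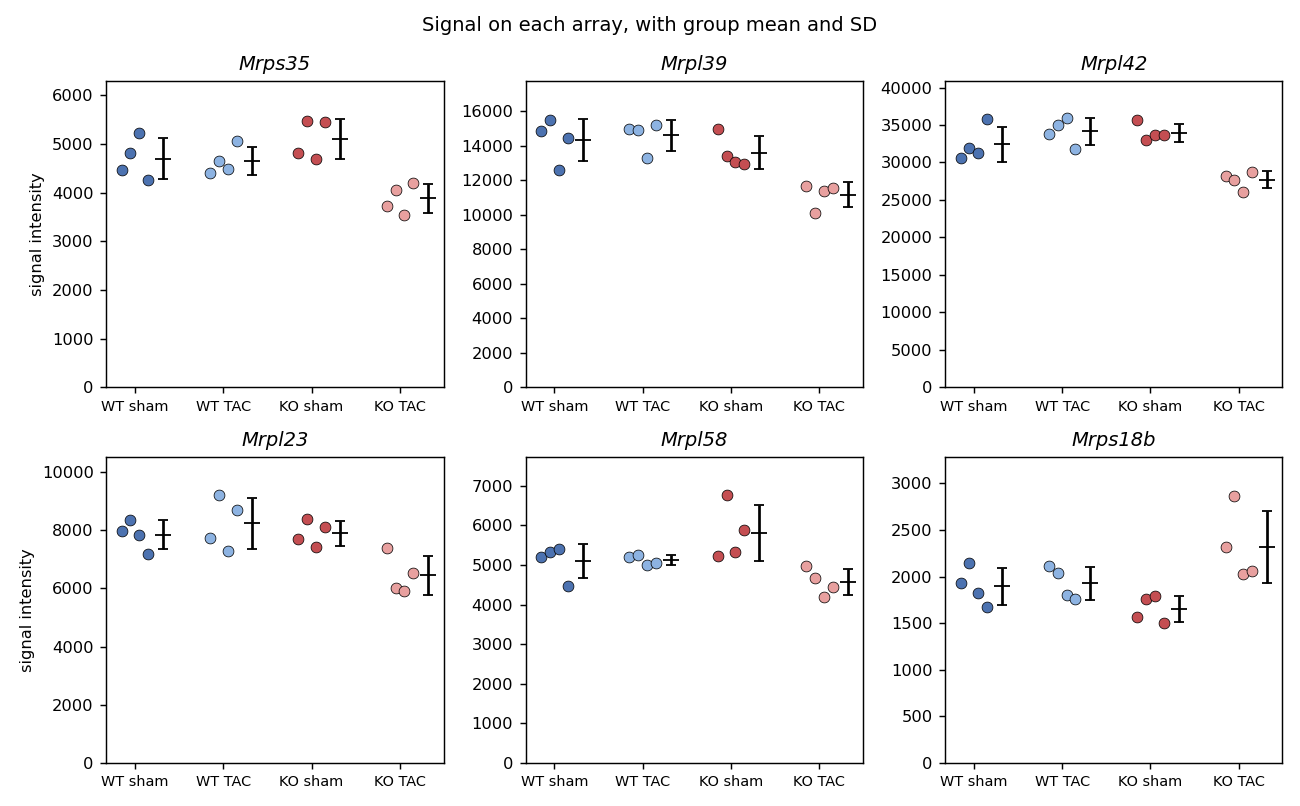
Deposited signal intensity (linear vertical axis from 0) of 6 Mrp genes on each array by group, with points for arrays and a bar for the group mean and SD (n = 4). The KO TAC points of Mrps35, Mrpl39 and Mrpl42 lie below the points of the other groups, those of Mrpl23 and Mrpl58 overlap them in part, and those of Mrps18b lie above KO sham.

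The fifth comparison asks whether the response to load differed between genotypes, as the interaction of operation and genotype. It called 0 of 76 members and 0% of all tested genes, and 8 members had an unadjusted p under 0.05, against 10.3% of all genes. Mrpl42 (-0.37 ± 0.12, adjusted p = 0.348) and Mrps35 (-0.38 ± 0.14, adjusted p = 0.394) had the smallest p, followed by Mrps18b (0.45 ± 0.18), Mrpl23 (-0.36 ± 0.15) and Mrpl58 (-0.35 ± 0.14; -0.96 with its probe sets averaged and -0.10 with arrays centred). The median was -0.08, beside 0.01 for all genes. Here 56 of 76 members had an interval within 1.5-fold. A difference between the genotypes in their response to load was therefore not shown for any single member.

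**Figure D4:**
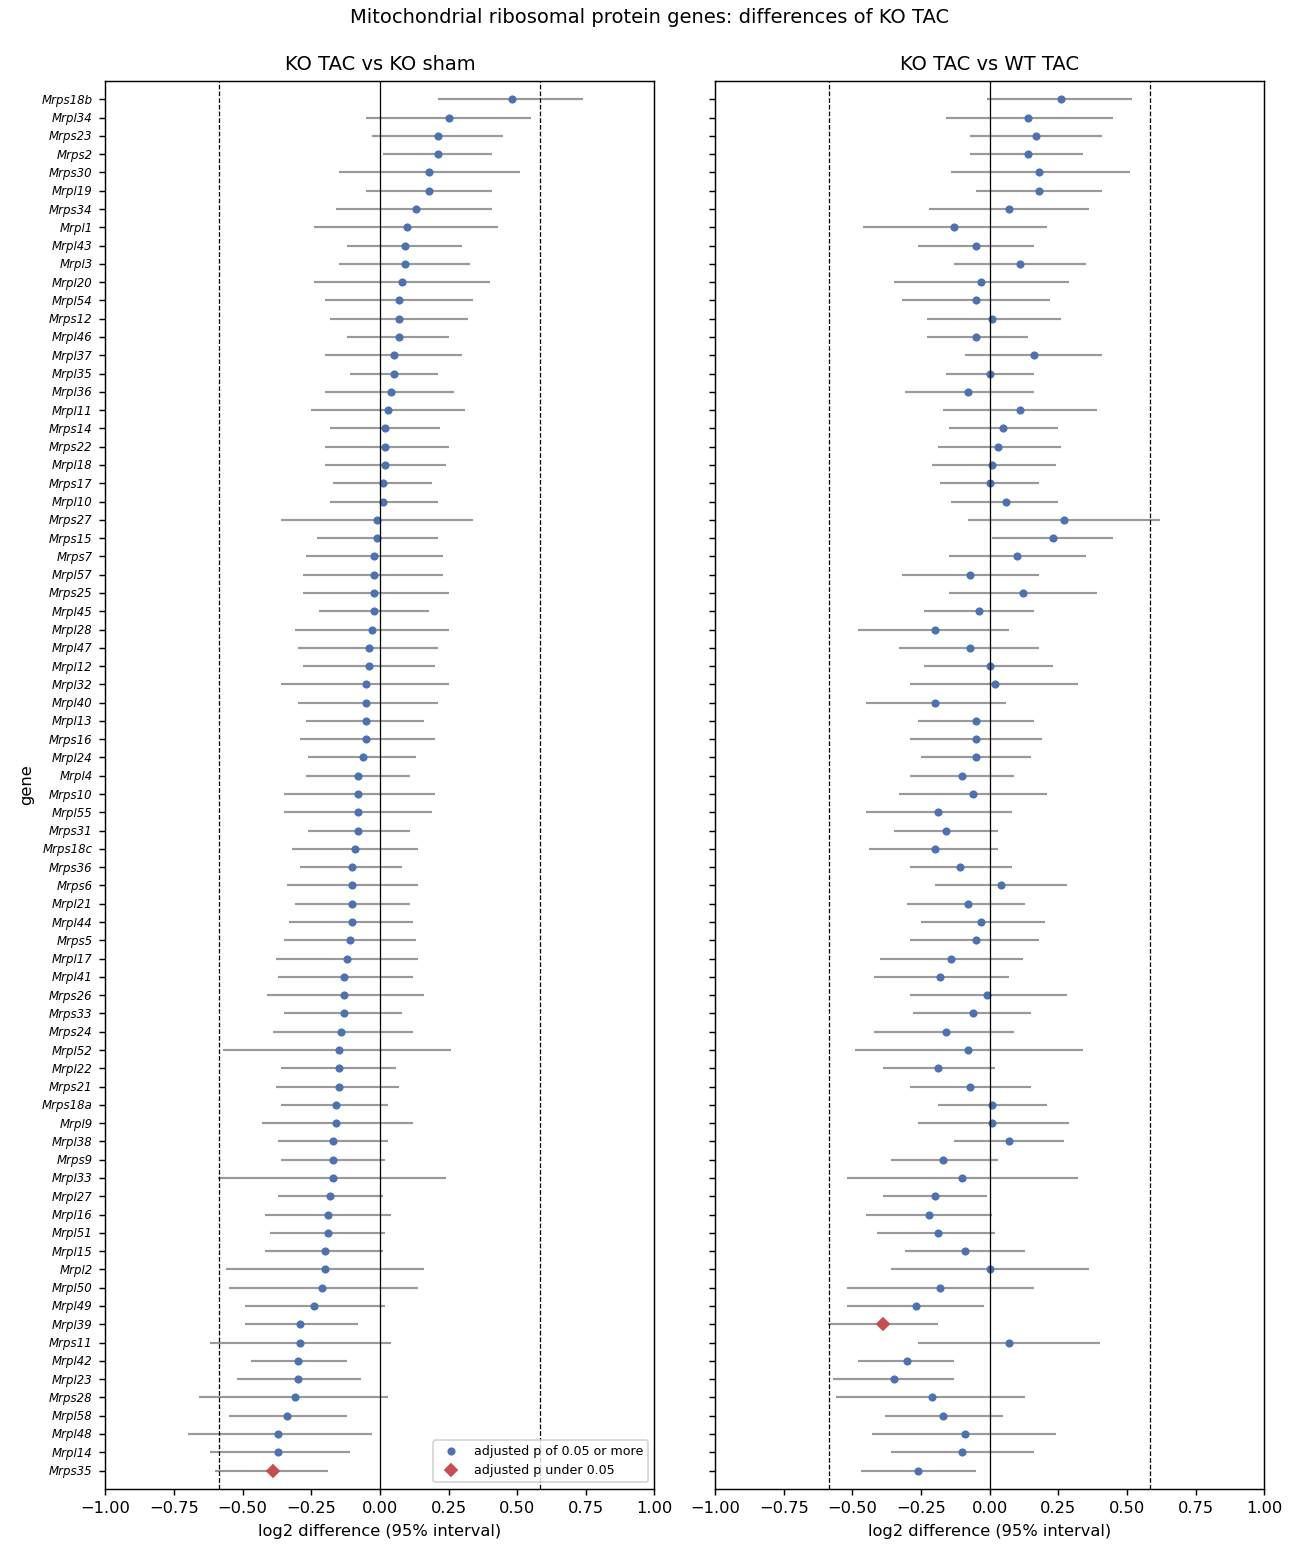
Log2 difference (points) with its 95% interval (lines) for the 76 Mrp genes in KO TAC versus KO sham (left) and KO TAC versus WT TAC (right), in 1 order of genes. Red diamonds mark an adjusted p under 0.05 (Mrps35 on the left, Mrpl39 on the right), and dashed lines mark 1.5-fold. Points run from 0.48 (Mrps18b) to -0.39 (Mrps35) on the left.

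Promoter windows of the members are shown for 3 of the genes that moved most with KO TAC, because the factors NRF-1, the ETS factor GABP, YY1 and ERR are known to act on nuclear genes for mitochondrial proteins. The windows are from RefSeq, assembly GRCm38.p6, and run from 250 bases before to 50 bases after the annotated start, 5′ to 3′ along the gene. Capitals mark a match, on either strand, to the letters GCGCANGCG (NRF-1), CCGGAAG (ETS), AAGATGGCG (YY1) or CAAGGTCA (ERR). The window of Mrpl39 is chr16:84735195-84735494 on the minus strand, that of Mrpl42 is chr10:95501900-95502199 on the minus strand and that of Mrps18b is chr17:35916391-35916690 on the minus strand.
Mrpl39: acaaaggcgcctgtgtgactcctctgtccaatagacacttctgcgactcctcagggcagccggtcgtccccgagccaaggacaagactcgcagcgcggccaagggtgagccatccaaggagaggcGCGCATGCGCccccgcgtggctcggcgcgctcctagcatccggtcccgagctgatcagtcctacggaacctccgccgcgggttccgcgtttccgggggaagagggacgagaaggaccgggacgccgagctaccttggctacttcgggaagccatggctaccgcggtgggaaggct
Mrpl42: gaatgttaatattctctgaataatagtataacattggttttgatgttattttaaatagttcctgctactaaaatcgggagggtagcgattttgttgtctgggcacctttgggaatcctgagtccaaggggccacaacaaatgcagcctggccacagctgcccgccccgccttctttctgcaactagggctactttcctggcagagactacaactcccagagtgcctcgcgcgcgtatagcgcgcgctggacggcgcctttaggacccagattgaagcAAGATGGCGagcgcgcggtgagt
Mrps18b: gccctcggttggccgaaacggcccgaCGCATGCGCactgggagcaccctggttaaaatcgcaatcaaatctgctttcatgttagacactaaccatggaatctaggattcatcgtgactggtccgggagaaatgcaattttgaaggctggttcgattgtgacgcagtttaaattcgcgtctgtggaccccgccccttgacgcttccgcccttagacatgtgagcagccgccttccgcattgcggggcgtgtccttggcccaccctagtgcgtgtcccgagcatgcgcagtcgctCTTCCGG
In Mrpl39 the capitals are 2 NRF-1 matches, 1 on each strand, that overlap in a palindrome. In Mrpl42 they are a YY1 match placed just after the annotated start, and in Mrps18b an NRF-1 match far upstream and an ETS match at the end of the window. The window of Mrpl23 held none of these letters. NRF-1 letters were held by Mrpl39, with a value of -0.39 in KO TAC against WT TAC, and by Mrps18b, with 0.26 (adjusted p = 0.324). Any link between these letters and the values was not tested.

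Of the 76 members, 67 matched the promoter table, with 73 windows. Unmatched were Mrpl4, Mrpl13, Mrpl15, Mrpl19, Mrpl38, Mrpl54, Mrps28, Mrps34 and Mrps35. The NRF-1 letters were in 20.5% of the Mrp windows, 8.58% of 21263 windows of protein-coding genes and 6.25% of 32851 windows in all. The ETS letters were in 34.2%, 11.6% and 8.86% in the same order, and the YY1 letters in 11%, 1.83% and 1.4%. The ERR letters were in 2.74%, 1.34% and 1.56%. At least 1 of the 4 was in 56.2% of the Mrp windows and in 20.8% of those of protein-coding genes. A match describes letters and is not a measured site.

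Many Mrp genes also share a start region with a neighbour on the other strand. Among the 67 matched members, 25 (37.3%) had a gene on the opposite strand starting within 1000 bases in the outward direction, against 2298 of 17492 protein-coding genes (13.1%). Mrpl46 and Mrps11 start 42 bases apart, 1 protein for each subunit. Their values with load in the knockout were 0.07 ± 0.09 and -0.29 ± 0.15, and neither passed. Mrps12 starts 147 bases from Sars2, which charges mitochondrial serine tRNA, Mrpl43 starts 116 bases from Twnk, the mitochondrial DNA helicase, and Mrpl47 starts 308 bases from Ndufb5, a subunit of complex I.

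By role, the proteins of the stalk, which calls translation factors to the ribosome, gave small values. Mrpl12, at the tip of the stalk, averaged 12.84 ± 0.06 (log2 signal, SD, n = 4) for WT sham and 12.79 ± 0.07 for WT TAC. For KO sham it averaged 12.82 ± 0.19, and for KO TAC 12.78 ± 0.19. Its values in the 4 pairwise comparisons were -0.02, 0.00, -0.05 and -0.04, each ± 0.11. Mrpl10, which anchors the stalk, ran from -0.04 to 0.06 and Mrpl11, at its base, from -0.09 to 0.11. None of these passed the test.

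Small-subunit proteins that help to read the codon accurately were also within their spread. Mrps12 gave between 0.01 and 0.10 in the 4 pairwise comparisons, each ± 0.12. Mrps5 gave 0.20 ± 0.11 in KO sham against WT sham (adjusted p = 0.669) and -0.05 ± 0.11 between genotypes under load, but it is 1 of the 3 dimmest members, and the mean of its 5 probe sets turned the first value to -0.04. The other dim members had wide errors, at 0.27 ± 0.16 for Mrps27 and -0.13 ± 0.16 for Mrpl1 between genotypes under load. Mrpl41, a large-subunit protein added in mitochondria, gave -0.18 ± 0.11 in KO TAC against WT TAC (adjusted p = 0.477).

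Some members are known as causes of heart disease when mutated in people. Among them MRPL3 and MRPL44 cause hypertrophic cardiomyopathy, and MRPS22 and MRPS16 severe neonatal disease of mitochondrial translation. The mouse genes gave small values as well. Mrpl3 ran from 0.01 to 0.11 over the 4 pairwise comparisons, Mrpl44 from -0.10 to 0.04, Mrps22 from -0.06 to 0.03 and Mrps16 from -0.05 to 0.09, each with a standard error of 0.11. For Mrpl44 the largest deviation was with load in the knockout, at -0.10 with a 95% interval from -0.33 to 0.12. None of the 4 passed in any comparison.

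By subunit, the symbols divide the genes as named, although structures of the ribosome place the products of Mrps18a and Mrps30 in the large subunit. Whether each of the other products, such as that of Mrps36, is part of the ribosome was not checked. In KO TAC against WT TAC, the large-subunit median was -0.08 (11 of 47 positive) and the small-subunit median was 0.01 (16 of 29 positive). With load in the knockout both medians were -0.08. Of the 47 large-subunit genes, 20 have numbers above 36, the highest in bacteria, and these had a median of -0.09 (2 of 20 positive) in KO TAC against WT TAC, beside -0.05 (9 of 27 positive) for those with bacterial numbers. In the interaction the medians were -0.15 (1 of 20 positive) and -0.06 (11 of 27 positive). This split was made after the values were seen, and the difference between the subsets was not tested.

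The brightest genes of the array had medians below 0 with load in the knockout, members and others alike. The 4 members with a mean log2 signal of 13 or more had a median of -0.24, beside -0.11 for 534 other genes as bright. The 31 members between 12 and 13 had -0.08, beside -0.01 for 592 other genes, and the 25 between 11 and 12 had -0.05, beside 0.02 for 1052. The 15 between 10 and 11 had -0.02, beside 0.02 for 1712. In each of these 4 bins the members' median lay below that of other genes of like brightness, while the 1 member below 10 gave 0.10, beside 0.01. In KO TAC against WT TAC the members lay lower from 11 upwards, and in the bin from 10 to 11 they had 0.07, beside 0.06. Brightness and the shape of the array's signal moved with the result, and their part in it was not tested.

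Centring every array on its median shifted the whole table, and the direction of the members' median with it. The all-gene median then lay at 0.22 in KO TAC against WT TAC and 0.13 with load in the knockout, and the members' medians at 0.14 and 0.05, above 0 where they had been below. Relative to all genes, the members' medians lay at -0.08 in both comparisons, a value that centring cannot change. Over the other settings tried, this relative value ran from -0.11 to -0.03 and from -0.10 to -0.02.

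Second probe sets gave a check on the choice of the brightest. Of the 76 members, 35 had another probe set above the filter, and the signs matched in 26 of 35 with load in the knockout and in 22 of 35 between genotypes under load. The medians were -0.10 and -0.09 for the first and second sets with load in the knockout, and -0.07 and -0.08 between genotypes under load. No member had probe sets that went in opposite directions at an unadjusted p under 0.05 in both. Mrps35, Mrps18b and Mrpl23 have 1 probe set each, and the other set of Mrpl42 is dim.

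Within groups the members varied together, as a description over 16 arrays after group means were removed. The median correlation between 2 members was 0.31, and 72 of 76 correlated above 0 with the mean of the others. Mrps17 followed the others most closely (r = 0.91), and Mrpl42 least (r = -0.42). Mrpl39 was also loosely tied (r = 0.09). The mean of the members correlated with that of 27 mitochondrial import genes at r = 0.72 (Spearman 0.74; 0.60 without KO sham 2 and WT TAC 2, the arrays farthest from the median). It correlated with fatty acid oxidation genes at r = 0.54 (Spearman 0.57; 0.38 without them), with cytosolic ribosomal proteins at r = 0.54 (Spearman 0.41; 0.37), with the citric acid cycle at r = 0.28 (Spearman 0.22; 0.19) and with respiratory chain genes at r = 0.23 (Spearman 0.03; 0.05). The genes outside the family whose pattern was most like the members' mean were Amz2 (r = 0.95), Qdpr (0.94), Mtfp1 (0.91), Tmem109 (0.90) and Cyb561d2 (0.89). All these points share an array, its scaling and its hybridisation.

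Other parts of the mitochondrial translation system gave few calls. Of 26 tested genes for ribosome assembly and rRNA modification, 0 were called in any comparison by limma, with medians between -0.08 and 0.07, and between 0 and 3 had an unadjusted p under 0.05. Of 16 translation factors, 0 were called. With load in wild type, 4 of 16 had an unadjusted p under 0.05, all lower, where 7.62% of all genes did, and in the other comparisons 1 or 2 had. Tufm, the elongation factor that brings charged tRNA to the ribosome, gave -0.30 ± 0.09 with load in the knockout (adjusted p = 0.0874) and -0.22 ± 0.09 with load in wild type (adjusted p = 0.621). Of 14 mitochondrial aminoacyl-tRNA synthetases, 1 was called, with load in the knockout, against 2.57% of all genes. Hars2, which charges histidine tRNA, fell there by 0.49 ± 0.12 (limma, adjusted p = 0.0427). Centring the arrays on their medians ended that call. The 4 tested ribosome proteins without an Mrp symbol, Dap3, Ptcd3, Chchd1 and Gadd45gip1, ranged from -0.17 to 0.03 in that comparison with 0 called.

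Regulators of mitochondrial biogenesis were likewise uncalled, with 0 of 11 in every comparison by limma and at most 2 with an unadjusted p under 0.05. Ppargc1a, the coactivator best known for raising mitochondrial content, gave -0.43 ± 0.22 in KO TAC against WT TAC (adjusted p = 0.343). Esrra, its nuclear receptor partner, gave -0.41 ± 0.16 with load in wild type (adjusted p = 0.621) and -0.41 ± 0.16 with load in the knockout (adjusted p = 0.222). Nrf1 gave -0.32 ± 0.15 (adjusted p = 0.295) and Tfam, which packs mitochondrial DNA, 0.26 ± 0.13 (adjusted p = 0.369) with load in the knockout.

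The fuel genes that PPARalpha is known for gave much larger values. Of 21 tested fatty acid oxidation genes, 9 were called lower in KO sham against WT sham (median -0.31), where 0.742% of all tested genes were called. In KO TAC against WT TAC, 15 were called lower (median -0.67), where 2.46% of all genes were called. Of the 76 Mrp genes, 0 and 1 were called lower in these comparisons. With arrays centred on their medians, 6 and 9 of the fatty acid oxidation genes fell. Cpt2, which hands fatty acyl groups over inside mitochondria, gave -1.32 ± 0.10 in KO sham (adjusted p = 5.4e-06). On the arrays, the fatty acid oxidation medians lay at -0.32 to -0.30 in KO sham and at -0.70 to -0.58 in KO TAC, clear of the WT sham range of -0.03 to 0.01. The Mrp medians of those arrays spanned -0.05 to 0.15 and -0.13 to 0.05. No interval of an Mrp gene in these comparisons reached the size of the Cpt2 difference, but Cpt2 is among the larger falls of its list. In KO sham against WT sham, 9 of the 21 differed by more than 1.5-fold and 4 of 21 were above 0. Echs1 of that list averaged 14.02 ± 0.05 (log2 signal, SD) in WT sham and 14.08 ± 0.13 in KO sham.

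The respiratory chain, whose subunits encoded in mitochondria this ribosome makes, had medians of 0.06 in KO sham against WT sham and 0.10 with load in wild type. Of 76 tested nuclear subunit genes, 2 were called lower in KO TAC against WT TAC (Ndufv3 and Ndufa3) and 0 higher, against 2.46% of all tested genes. An unadjusted p under 0.05 was reached by 53 of 76, all lower, against 16.4% of all genes. The median was -0.27 with 73 of 76 below 0, beside -0.05 and 49 of 76 for the Mrp genes. With load in the knockout, 2 were called lower (Ndufv1 and Atp5g2), against 2.57% of all genes. An unadjusted p under 0.05 was reached there by 35 of 76, all lower, against 16%. Their median was -0.22 with 72 of 76 below 0, beside -0.17 for the fatty acid oxidation genes and -0.08 for the Mrp genes. Of 17 citric acid cycle genes, 1 fell in KO TAC against WT TAC, Cs, the citrate synthase often used as a measure of mitochondrial content, at -0.37 ± 0.08 (adjusted p = 0.0248). The 27 import genes had medians between -0.04 and 0.02 with 0 called and at most 2 at an unadjusted p under 0.05, and the 44 cytosolic ribosomal proteins had -0.16 with load in the knockout, where Rpl3l alone was called lower. With arrays centred on their medians, the respiratory chain medians stayed below 0 at -0.08 and -0.09, 0 of its genes were called, and the Cs and Rpl3l calls were lost. Against the all-gene median, 73 and 72 of the 76 subunit genes lay lower as deposited. After quantile normalization 63 and 64 did, with medians of -0.07 and -0.06, 0 and 1 called, and the Cs call lost. The Mrp medians were then -0.07 and -0.09, so the gap between the respiratory chain and the Mrp genes was not present on that scale. Differences between these lists were not tested.

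**Figure D5:**
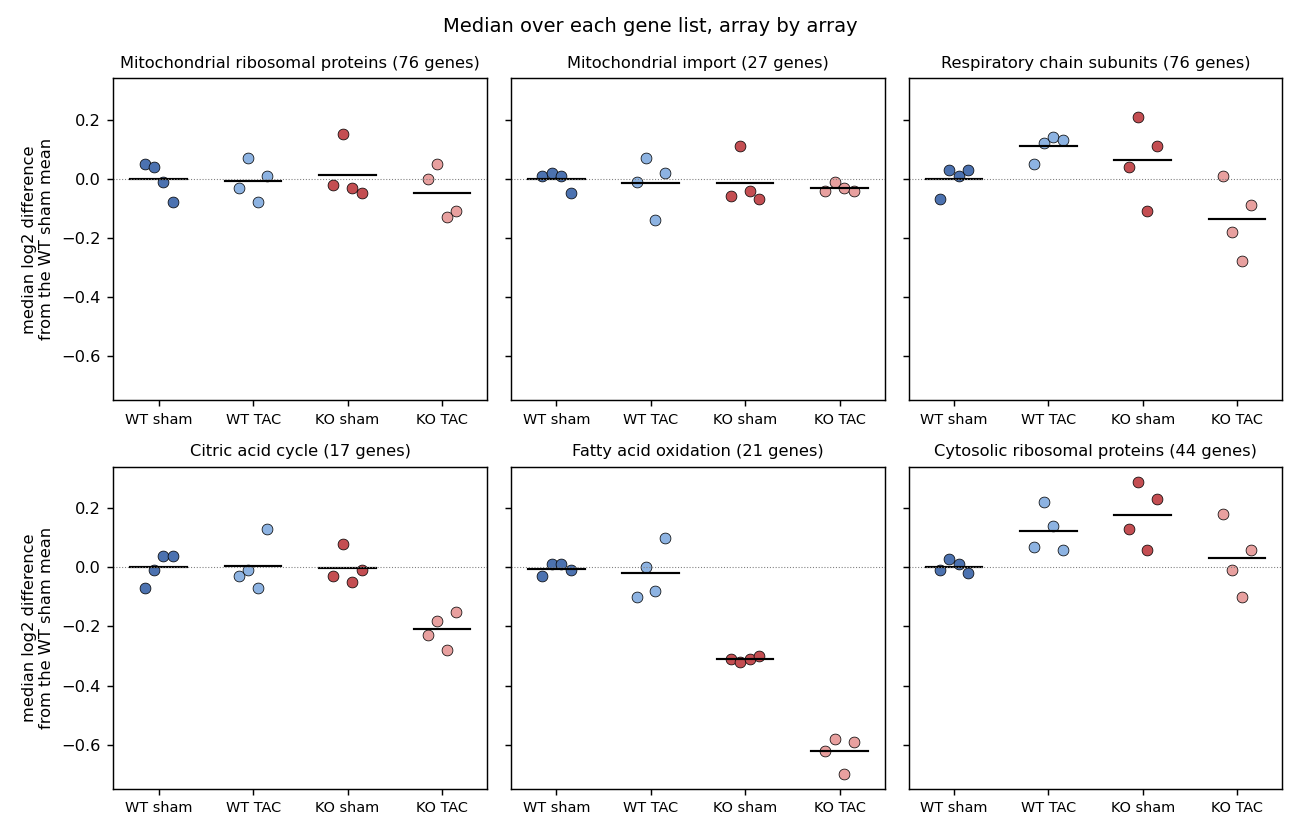
Median over each of 6 gene lists on each array (vertical axis, log2 difference from the WT sham mean; points), with the group mean as a bar. Points within a group run from left to right by replicate number. The Mrp and import points of all groups overlap around 0, citric acid cycle points are lower in KO TAC (-0.28 to -0.15), and fatty acid oxidation points are lower in both KO groups.

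Some cell type markers also differed between the groups. Of all tested genes, 2.46% were called in KO TAC against WT TAC, 2.57% with load in the knockout and 0.742% in KO sham against WT sham. Of 9 fibroblast markers, 4 were called higher in KO TAC than in WT TAC and 4 than in KO sham. Their summed signal ran from 67773 to 75830 in KO TAC, against 45789 to 54052 in KO sham, 48032 to 63004 in WT TAC and 47022 to 51238 in WT sham. Of 9 macrophage markers, 3 were higher in KO TAC than in WT TAC, and 1 was after quantile normalization. Their sums ran from 29198 to 36470 in KO TAC, 25791 to 29169 in KO sham, 20684 to 28234 in WT TAC and 22593 to 24940 in WT sham, so that KO sham lay above WT sham as well. In KO sham against WT sham 0 were called and 4 of 9 had an unadjusted p under 0.05, all higher, against 8.52% of all genes. Of 10 heart muscle markers 0 were called. In KO TAC against WT TAC 8 had an unadjusted p under 0.05, against 16.4% of all genes, and with load in the knockout 3 had, against 16%, all lower. Their medians of -0.33 and -0.21 became 0.01 and 0.00 after quantile normalization, with 6 and 4 of 10 positive. As deposited, 9 of 10 were above 0 with load in wild type (median 0.26), and 6 had an unadjusted p under 0.05, against 7.62% of all genes. In KO sham against WT sham 10 of 10 were above 0 (median 0.15). Their sums ran from 483696 to 598808 in KO TAC, 566354 to 667551 in KO sham, 618746 to 824083 in WT TAC and 516617 to 598516 in WT sham. No marker of these 3 lists was at the floor on any array. Of 4 atrial markers, 1 was higher in KO TAC than in WT TAC and 1 than in KO sham, and their sums ran from 58087 to 71168 in KO TAC, 28362 to 55460 in KO sham, 34025 to 49067 in WT TAC and 15897 to 28167 in WT sham. Their median differences were 2.20 in KO TAC against WT TAC and 1.25 in KO sham against WT sham, with 4 of 4 above 0 in both. With load the medians were -1.14 in the knockout and -1.98 in wild type, with 3 of 4 below 0 in each, although the sums were higher. Of the 4 atrial markers, 1 was at the floor on at least 1 array. The 1 tested erythroid marker was higher by 1.07 in KO TAC than in WT TAC (limma, adjusted p = 0.0189). Endothelial (8), smooth muscle and pericyte (6) and adipocyte (1) markers tested had 0 called in every comparison. Endothelial sums overlapped, at 10338 to 12000 in WT sham and 10921 to 13176 in KO TAC. Sums of 7 smooth muscle and pericyte markers were 26611 to 32536 in KO sham, below 34723 to 37575 in WT sham. They were 31022 to 38400 in KO TAC and 35914 to 44922 in WT TAC. In whole ventricle, fewer cells of a type and less RNA per cell cannot be told apart, and the part of cell makeup in the differences of Mrps35 and Mrpl39 was not tested.

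Leaving out WT TAC 3, KO TAC 2 and KO TAC 3, whose spike-in signals were the highest and the lowest, kept the sizes of both called genes but not their calls. Mrpl39 gave -0.38 in KO TAC against WT TAC (adjusted p = 0.248) and Mrps35 gave -0.36 with load in the knockout (adjusted p = 0.295). Groups without overlap then numbered 18 of 76 members in KO TAC against WT TAC, 16 of them lower, against 26.6% of all genes with these smaller groups. With load in the knockout they numbered 13 of 76, 10 of them lower, against 19.4%.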

How the data were processed

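Total RNA of the left ventricle was hybridised to Affymetrix mouse arrays with 45101 probe sets, 4 arrays for each of 4 groups taken from the sample titles. The deposited intensity is linear and was made by the authors with GCOS 1.4, per the submitters' processing notes. On each of the 16 arrays the trimmed mean (2nd to 98th percentile) was 500. Such scaling fixes each array's mean, so that bright genes changing together shift the rest. The sources used here do not give detection calls or algorithm settings.

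Signals below 11.9, the 10th percentile, were raised to it, then put on the log2 scale without normalizing again. Of the probe sets, 34945 had 1 gene in the array annotation, 932 several and 9160 none, and 64 were controls. Each gene was read from its brightest single-gene probe set. The gene IDs of 76 of 76 members matched RefSeq. A single model in limma 3.58.1 (R 4.3.3) gave each group a mean over all arrays, and its steps were tested on simulated data.

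Members and lists were chosen with earlier results of these data known, and the grouping by bacterial number, the brightness bins, the second probe sets and the promoter searches after values were seen. Genes named are, per comparison, the called members or else the 5 with the smallest p, a panel of 15 chosen for their roles, and the 3 brightest and 3 dimmest. Members without overlap, and those ranking at the ends of a range, were named after their values were seen. Alternatives were other normalizations, floors, filters and probe set choices, limma with trend and robust fitting, array weights, a spike-in covariate, a replicate block, fits to the compared groups alone, and omission of each array.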

Additional observations from a re-analysis of the deposited data

Results flagged for a closer look

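In groups of 4 arrays, a value was examined further when the highest or lowest array stood far from the other 3 relative to the whole range. Of 120 groups (30 items in 4 groups), 6 had such an array, where chance gives about 1 in 20. Values are log2 signals unless stated otherwise. Mrps5 was at 10.05 on KO sham 3, below 10.15 to 10.17 on the other KO sham arrays. Mrpl39 was at 13.70 on WT TAC 3, below 13.87 to 13.89, and without that array its difference between KO TAC and WT TAC was -0.43. Mrpl1 was at 9.51 on WT TAC 3 as well, below 9.94 to 9.98. Mrpl37 was at 10.44 on WT sham 4, above 10.38 to 10.39. Mrpl14 was at 12.39 on KO sham 2, above 12.09 to 12.13, and the median over the Mrp genes on that array was 0.15 relative to WT sham, above -0.05 to -0.02 on the other KO sham arrays.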

How the results depend on the processing

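Counts of called members stayed at 0 in KO sham against WT sham, WT TAC against WT sham and the interaction under every alternative run. In KO TAC against WT TAC the count of 1 became 0 with quantile normalization, centring, no filter, averaged probe sets, the 3 spike-in extremes left out, the spike-in covariate or only the arrays compared, 2 with the dimmest 60% left out, 3 with trend and robust fitting, and 0 to 1 with single arrays left out. With load in the knockout the count of 1 became 0 with centring, no filter, averaged probe sets, the same 3 arrays left out, the spike-in covariate or only the arrays compared, 3 with the dimmest 60% left out, 4 with trend and robust fitting, and 0 to 1 with single arrays left out. The cause of these changes in the counts was not tested. Replicate numbers are titles only and same-numbered arrays did not deviate together (mean correlation 0.01, 5 of 24 pairs over 0.1, 7 of 16 arrays closest to their own number). With the replicate number as a block, the counts were 0 in KO TAC against WT TAC and 1 with load in the knockout, where the gene was Mrps18b in place of Mrps35.

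Medians moved by more than the spread between arrays only with centring, to 0.14 in KO TAC against WT TAC, -0.11 with load in wild type, 0.05 with load in the knockout and 0.16 in the interaction. Averaging probe sets reversed Mrps5 at baseline (-0.04), Mrps25 with load in wild type (0.27), and Mrpl42 with load in the knockout (0.41) and in the interaction (0.45), where its second probe set is dim. It also took Mrpl58 from 0.18 to 0.68 at baseline and from -0.35 to -0.96 in the interaction. Over all alternatives Mrpl39 ran from -0.43 to -0.20 (adjusted p from 0.00834 to 0.389) and Mrps35 from -0.43 to -0.27 (adjusted p from 0.0156 to 0.428). Without _x_at and _s_at probe sets Mrpl37 had no value.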
